A study of Homo sapiens with 11 samples.

Results

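The RNA sites occupied by ZFP36L2 in MOLM13 cells were described from every peak of the authors' deposited MOLM13 tables of immunoprecipitate over input. These hold 14432 peaks for replicate 1 and 14425 for replicate 2, or 28857 of the 67083 peaks over input of the series. MOLM13 is an established human line of acute myeloid leukaemia with monocytic features, known to carry a KMT2A-MLLT3 fusion and an internal tandem duplication of FLT3. In enhanced crosslinking and immunoprecipitation (eCLIP), ultraviolet light links proteins to RNA, the protein is precipitated with its RNA fragments, and the fragments are sequenced. The series asked which RNAs ZFP36L2 occupies in MOLM13 and in THP1, a second leukaemia line, in connection with differentiation.

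Each MOLM13 group had 2 libraries. The immunoprecipitates (IP) were made with an antibody to ZFP36L2 (TIS11D), the IgG controls with nonspecific antibody, and the inputs from 2% of the sample taken before precipitation. Cells were irradiated with 400 mJ/cm2 at 254 nm, and material of about 30 to 105 kDa was excised. No library of cells without ZFP36L2 was used here, so the controls for the antibody are IgG and input. Nothing in the labels says that the duplicates came from separate cultures, and the spread between them may be technical. Markers of other blood lineages rarely had IP clusters: 2 of 15 lymphoid genes (CD4 and TRAC) and 1 of 15 erythroid or megakaryocytic genes (EPOR) had IP clusters in both replicates, against 8 of 12 monocytic and line markers, including SPI1, LYZ, CD33 and FLT3. CD14 and ITGAM, markers of mature monocytes, had none in either replicate.

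ZFP36L2 belongs to the TIS11 family, with ZFP36 (tristetraprolin) and ZFP36L1. These proteins bind AU-rich elements in the 3' untranslated region (3' UTR) through a pair of CCCH zinc fingers and recruit the CCR4-NOT deadenylase, which shortens the poly(A) tail and leads to decay of the mRNA. In blood cells the family is known for restraining cytokine, cell cycle and signalling mRNAs. The preferred element is TATTTAT or the longer TTATTTATT, written here in DNA letters with T for the U of RNA.

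Sequence could be read where a site reached into the RefSeq windows around gene starts (250 bases before to 50 bases after the start, GRCh38.p14). A site is a stretch of touching or overlapping same-strand peaks of both replicates in which peaks of different replicates share at least 1 base. Of all sites, 30 had at least 15 bases inside such a window. On the RNA strand 13 of them (43.3%) held ATTTA, 11 (36.7%) TATTTAT and 8 (26.7%) TTATTTATT, and each longer motif contains the shorter ones. On the opposite strand ATTTA was found in 2 of the 30 sites and the longer motifs in 0. Among IP clusters not enriched over input in the same windows, TATTTAT was held by 1.05% of 1620 in replicate 1 and 1.11% of 1897 in replicate 2. Those clusters had a median GC content of 68.6% in replicate 1 and 68.8% in replicate 2, against 59.1% for the 30 sites. Base composition was not matched in this or the following comparisons of TATTTAT, and its part in them was not tested. For those clusters covered over at least 70 bases, the sites' median, the shares holding TATTTAT were 3.74% and 4.60%. Stretches of 70 bases tiled over all 35116 windows held it in 0.577%. These are matches of letters within a small set near RefSeq gene starts, not a survey of all sites. The start was often that of another gene. Of the stretches below, those of EIF1B, PRC1, TTBK2 and CEBPB lie in the windows of EIF1B-AS1, PRC1-AS1, TTBK2-AS1 and CEBPB-AS1. The stretches below show the element, or for CEBPB ATTTA alone, at sites annotated to a 5' UTR, a noncoding exon, a coding sequence and a 3' UTR. They are a selection from the 13 sites with ATTTA, made with their values known. All of them but FOXP1 had a log2 fold and −log10 p of at least 3 over IgG in both replicates. Of all 13 sites with ATTTA just 6 did, so the stretches shown are not typical of the 13 over IgG. The annotation is that of the site's highest replicate 1 peak, and the motif itself need not lie in that region. In H2BC7 the motif stands just before an ATG, so it is not shown to be coding. Capitals mark the longest motif found.
EIF1B: gaagcgttttcTTATTTATTtccgttttct
PRC1: ttgaagcactaTTATTTATTcttccgctgt
H2BC7: tgtggacgaagtgttTATTTATcatgcctg
TTBK2: taaaagtgtaaTTATTTATTtaattttccc
FOXP1: tgTTATTTATTgtgtggcggttgcacgctg
CEBPB: cgcccgtggtgttATTTAaagaagaaacgt
The stretches lie at chr3:40309830-40309859 (plus strand, EIF1B, 5' UTR), chr15:90966208-90966237 (minus, PRC1, noncoding exon), chr6:26199536-26199565 (plus, the histone gene H2BC7, coding sequence), chr15:42739081-42739110 (minus, TTBK2, 3' UTR), chr3:71583728-71583757 (minus, FOXP1, 5' UTR) and chr20:50192284-50192313 (plus, CEBPB, 3' UTR). Coordinates are 1-based on hg38 throughout.

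Enrichment varied among these sites. The log2 fold over input was 6.92 in replicate 1 and 8.90 in replicate 2 for EIF1B, a translation initiation factor of the SUI1 family, and 6.01 and 6.69 for PRC1, a microtubule bundler of cytokinesis. Over IgG the same sites gave 5.45 and 5.96 for EIF1B and 5.29 and 6.34 for PRC1. The FOXP1 site was weaker, with 3.10 and 4.18 over input, against 2.11 and 1.83 over IgG. H2BC7 reached 5.47 and 5.95 over input, and reads of near-identical H2B genes may be shared with it. EIF1B and PRC1 were thus high over both controls, and FOXP1 stayed under a log2 fold of 3 over IgG.

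The other sites in these windows lacked ATTTA in the covered part. These 17 sites had a median GC content of 63.2%, against 42.1% for the 13 with ATTTA, and their covered part was shorter (median 49 against 89 bases). In 7 of the 17 the IP was below IgG (log2 fold under 0) in at least 1 replicate, with a GC content of 63.2% to 83.7%, while this held for 0 of the 13 sites with ATTTA. All 7 lay in the window of their own gene, unlike several sites with ATTTA, such as EIF1B and PRC1. The kind of window was not matched between the sets. Passing over IgG in both replicates divided the sites less, with 5 of the 17 without ATTTA, such as ATP6V0C (4.89 and 5.69), and 6 of the 13 with it. TATTTAT was held by 36.4% of the 11 sites over IgG and 36.8% of the 19 others. Sites below IgG are shown by 3 of the 7, chosen after their values were seen.
NCKAP1: ccggagacgccgccgccgccgccgccgccg
MOSMO: cgggccgcgccgcggctgctggtcccgggc
ARHGAP5: gagggcggggggaggtggctgaagggacgc
They lie at chr2:183038420-183038449 (minus, NCKAP1, 5' UTR), chr16:22008124-22008153 (plus, MOSMO, coding sequence) and chr14:32077255-32077284 (plus, ARHGAP5, 5' UTR). ARHGAP5, which encodes a GTPase-activating protein, had log2 folds of 3.68 and 4.43 over input but -0.39 and -1.73 over IgG. No match says only that these letters are not in the covered stretch.

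Replicate 1 had 140287 IP clusters, of which the listed peaks were 10.3%, and replicate 2 had 182486, of which they were 7.9%. The authors' tables list a peak only where the log2 fold over input and the −log10 p both reach 3, and the weakest peaks lie just above it (clusters under it were used only as background). A peak of replicate 2 shared at least 1 base with 11310 peaks of replicate 1 (78.4%), and in the other direction 12103 (83.9%) were paired. Pairing rose with the fold: in replicate 1 it was 57.1% at log2 folds of 3 to 4, 79.5% at 4 to 5, 98.2% at 5 to 6, and all 944 peaks of 7 or more were paired. Of the 3122 and 2322 peaks without a partner, 94.6% and 89.6% overlapped a cluster of the other replicate that did not reach the thresholds. Among unpaired 3' UTR peaks, 0 had a log2 fold of 6 or more.

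The paired peaks formed 8453 sites on 4172 named genes, of which 3863 matched a protein-coding RefSeq gene and 98 a long noncoding RNA gene. Sites had a median width of 94 bases (11 to 435) and 61.5% held just 2 peaks, 1 of each replicate. The fold of a site in a replicate is that of its highest peak there, so the peaks behind both values need not be identical. The 2 replicates differed by a mean of 0.15 with a standard deviation of 0.84 on the log2 scale, and 77.1% of sites agreed within 1. Sites were selected for enriched peaks in both replicates, so these values leave out the unpaired peaks and describe agreement among selected sites only. Across sites, which share libraries and are not independent, Pearson's r was 0.765 and Spearman's rank correlation 0.683. Differences between sites of less than about 1 log2 unit are therefore within the spread of the replicates.

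**Figure D1:**
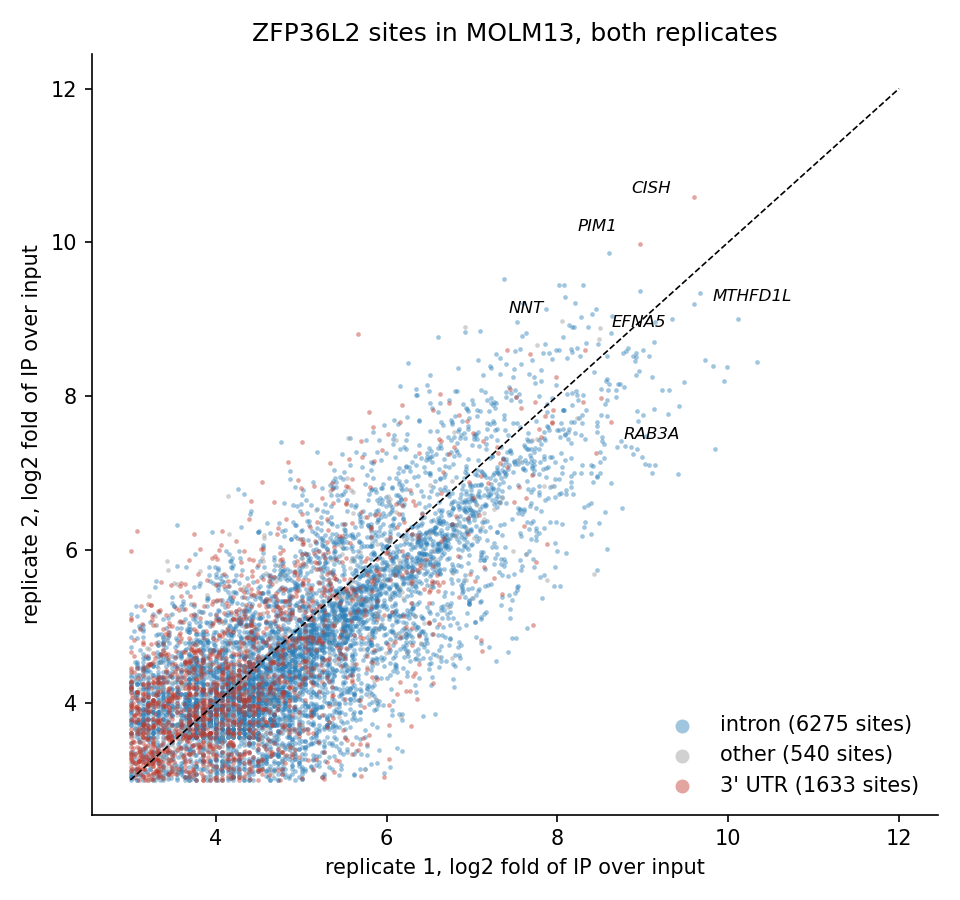
Log2 fold of IP over input for 8448 MOLM13 sites with a gene name, replicate 1 on the x axis and replicate 2 on the y axis; points are sites, coloured as 3' UTR (1633), intron (6275) or other, and the dashed line marks equal folds. CISH and PIM1 lead the 3' UTR sites and, by its lower replicate, MTHFD1L the intron sites, and intron sites fill much of the range above a log2 fold of 6.

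By the authors' annotation most sites lay in introns. Distal introns held 5160 sites (61.0%), proximal introns 610 (7.22%), and all intron classes together 6275 (74.2%). The 3' UTR held 1633 sites (19.3%, 95% Wilson interval for counting error 18.5% to 20.2%), coding sequence 280 (3.31%), 5' splice sites 81, noncoding exons 71, 5' UTRs 48 and 3' splice sites 41. With each replicate taken by itself, the 3' UTR share was 21.3% ± 1.16 (SD, n = 2). A single site was annotated to a miRNA, MIR222, with log2 folds of 4.89 and 3.64 over input. Its replicate 1 peak had a log2 fold of 2.10 over IgG, under the threshold, and its replicate 2 peak had no IgG value.

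Folds rested on few control reads, and more so in introns. The deposited folds fall on steps, and every peak could be written as whole IP reads over whole control reads. One IP read over 1 input read was worth a linear fold of 0.803 in replicate 1 and 0.422 in replicate 2, and over 1 IgG read 0.406 and 0.165. If the folds are ratios scaled to library totals, these steps are the size of each control library relative to the IP of its replicate. The IgG library of replicate 2 was then the smallest relative to its IP. A control of 1 read may also stand for a control of 0 set to 1. A log2 fold of 3 over input then takes at least 10 IP reads in replicate 1 and 19 in replicate 2, and over IgG 20 and 49. Peaks had a median of 45 and 78 IP reads, and 54.0% and 57.5% had an input of 1 read.

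Intron and 3' UTR sites differed in these reads. Both replicates had an input of 1 read at 3019 intron sites (48.1%), against 246 3' UTR sites (15.1%). The median input was 3 and 2 reads at 3' UTR sites and 1 and 1 at intron sites, with median IP reads of 68 and 113 against 49 and 73. Among the 2167 sites with at least 2 input reads in both replicates, a limit chosen after the data were seen, the 3' UTR share was 42.5% in place of 19.3%. The median log2 fold over input was nevertheless higher in introns (4.81 and 4.58) than in 3' UTRs (4.18 and 4.22), and the order was the reverse over IgG (3.07 and 2.38 in introns, 3.54 and 3.31 in 3' UTRs). How much of the intron folds rests on intron RNA being scarce in the input was not tested.

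Enrichment over IgG differed between the regions. A site counts as enriched over IgG when its highest peak also has a log2 fold and −log10 p of at least 3 over IgG in both replicates. This held for 2080 of 8453 sites (24.6%). By the same thresholds 5.11% of all clusters passed in replicate 1 and 2.49% in replicate 2, each taken by itself. These shares are not alike, since the sites were already selected over input with the same IP reads and had to pass in both replicates. Of the 3' UTR sites 775 (47.5%) passed, of coding sites 118 (42.1%), of 5' UTR sites 14 (29.2%) and of intron sites 1115 (17.8%). Replicate 1 by itself passed 52.2% of all sites and replicate 2 29.5%. The 3' UTR share of the sites that passed was 37.3%. Of the 48 5' UTR sites 6 (12.5%) were below IgG in both replicates, compared with 1 of 1633 in the 3' UTR and 2 of 6275 in introns.

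Within bins of IP reads, with input reads not matched, the share was also higher in 3' UTRs than in introns, though at 200 reads or more by just 1.89 percentage points in replicate 1. Among peaks with at least 100 and under 200 IP reads, 82.3% of 3' UTR and 75.5% of intron peaks passed over IgG in replicate 1, and 69.7% and 33.5% in replicate 2. With 200 reads or more the shares were 93.1% and 91.2% in replicate 1 and 85.4% and 53.1% in replicate 2. Under 50 reads, 31.3% and 18.6% passed in replicate 1 but 0.684% and 0.0902% in replicate 2, where 49 reads are needed. At sites with a lower log2 fold of 5 to 6 over input, 84.9% of 179 3' UTR sites and 30.2% of 1091 intron sites passed in both replicates. That comparison did not match IP reads, so its gap cannot be set beside those within the read bins. Over all folds, intron sites had fewer IP reads (medians 49 and 73) than 3' UTR sites (68 and 113).

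**Figure D2:**
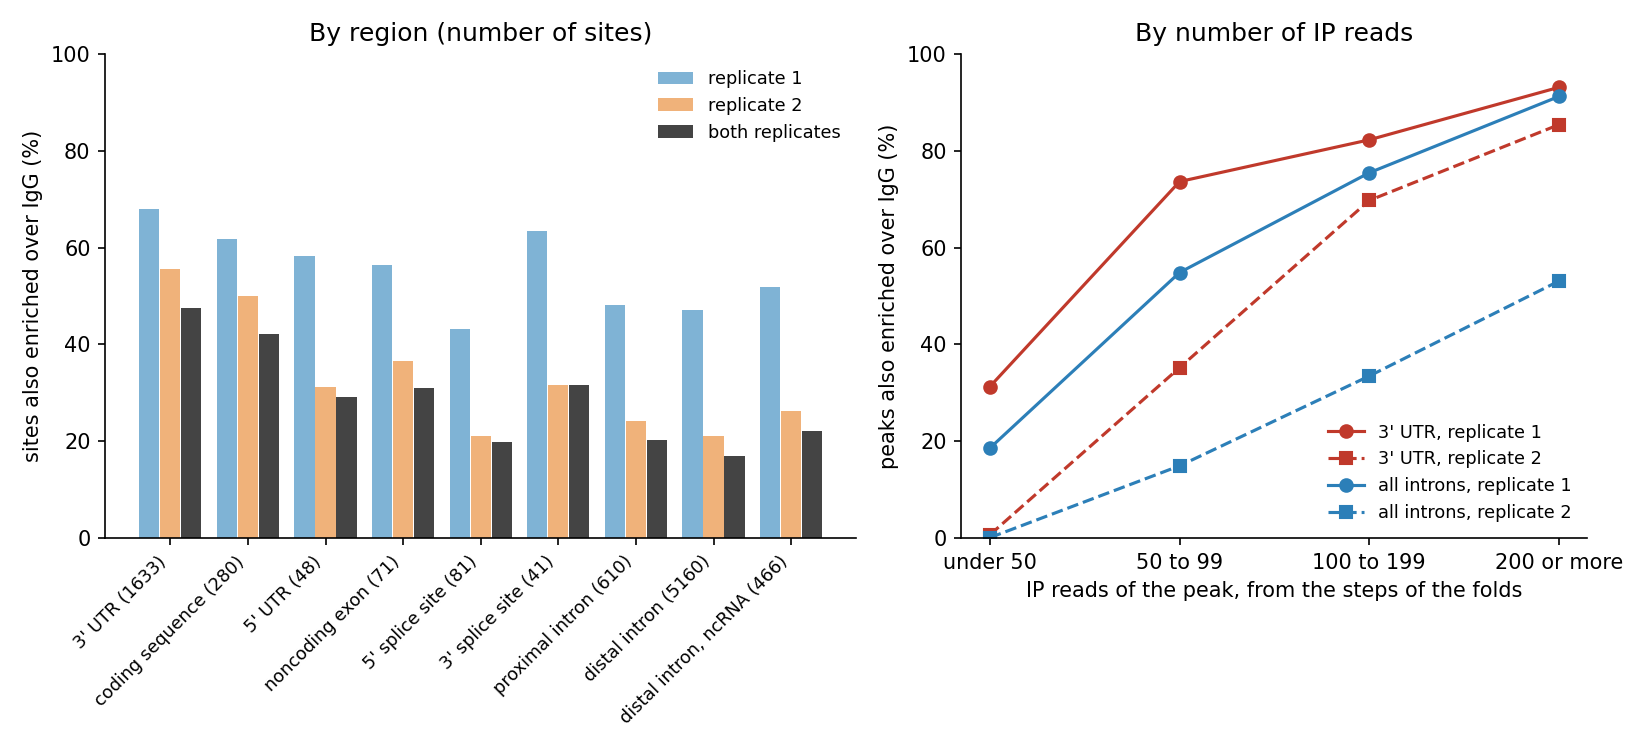
Left, percent of sites in each region that also passed a log2 fold and −log10 p of 3 over IgG, in replicate 1, in replicate 2 and in both, with the number of sites beside each region name. Right, percent of peaks that passed over IgG against the number of IP reads, for 3' UTR and intron peaks of each replicate. In both replicates the 3' UTR line lies above the intron line, by 32.3 percentage points in replicate 2 and 1.89 in replicate 1 at 200 reads or more.

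The TIS11 genes came first among the 3' UTR targets to be examined. ZFP36L2 itself held 2 sites in its 3' UTR, on the minus strand of chromosome 2. The wide site at chr2:43223139-43223534 held 16 peaks, with 6.54 and 7.81 over input, against 4.21 and 4.04 over IgG. A second at chr2:43222807-43222852 had 3.26 and 5.09 over input, against 2.59 and 4.73 over IgG, so it passed over IgG in replicate 2 only. ZFP36, the paralogue known for control of TNF mRNA, had a 3' UTR site at chr19:39409143-39409319 with 7.81 and 7.47 over input, against 5.41 and 7.43 over IgG. A smaller one lay at chr19:39408917-39409012, with 3.60 and 3.73 over input, against 3.03 and 3.59 over IgG. ZFP36L1 had IP clusters in both replicates but no site.

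Of all 3' UTR sites those of CISH and PIM1 were the highest in both replicates. CISH, a STAT5-induced inhibitor of cytokine signalling, held 19 peaks within 231 bases (chr3:50606933-50607163), with 9.60 and 10.58 over input, against 5.03 and 5.77 over IgG. Its highest peaks had 965 and 3639 IP reads over 1 input read in each replicate. PIM1, a serine/threonine kinase that is a STAT5 target, followed with 8.97 and 9.98 over input, against 5.88 and 6.04 over IgG (22 peaks, chr6:37174941-37175185). It stood on more control reads in replicate 1, with 12481 IP reads against 20 input and 86 IgG reads. TRIB1, a pseudokinase that leads C/EBP alpha to degradation, reached 8.51 and 7.98 over input, against 6.53 and 6.62 over IgG. For these 3 genes every value over IgG was above 5.

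The other 3' UTR sites leading among those enriched over IgG fell on genes of varied roles. UBE2W, a ubiquitin-conjugating enzyme, had 8.32 and 8.59 over input with 13 and 7 input reads. CERT1, the ceramide transfer protein, had 8.30 and 7.91, and STING1, the adaptor of cytosolic DNA sensing, 7.68 and 8.55 over input with 7.11 and 6.61 over IgG. DLG4, a scaffold protein, had 7.74 and 7.92, POLR3K, a subunit of RNA polymerase III, 7.86 and 7.73, and ASB1, a SOCS-box protein, 7.57 and 7.84. RAB3A, a GTPase of vesicle release, had 8.63 in replicate 1 and 7.66 in replicate 2, about 1 unit apart. Of these leading genes, CISH, PIM1, TRIB1 and STING1 were above 5 over IgG in both replicates.

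Among the genes with IP clusters in both replicates, 12767 in RefSeq, 31.2% had a site, 10.8% a 3' UTR site, 22.8% an intron site and 5.52% a 3' UTR site also enriched over IgG. For the 10181 protein-coding ones the shares were 37.9%, 13.6%, 27.5% and 6.92%. The 1391 genes with a 3' UTR site had a median lower-replicate log2 fold of 3.92 at their highest site, and 707 of them also passed over IgG. The lists below were chosen with earlier results of these data known, and their counts are read against the share of 13.6% for protein-coding genes as a description.

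Of FLT3 and JAK-STAT signalling genes, 9 of 34 with clusters had a 3' UTR site, and 5 of these passed over IgG. Besides CISH and PIM1 they were PIM3, the phosphatases DUSP1 and DUSP2, the receptor kinase antagonists SPRY1 and SPRY2, JAK2 and GAB2. PIM3 had 6.73 and 7.91 over input, against 5.16 and 3.10 over IgG. DUSP2 had 5.53 and 6.59 over input, against 5.54 and 4.24 over IgG, while JAK2, with 3.73 and 4.22 over input, had 0.94 and 2.86 over IgG. The feedback inhibitors SOCS1, SOCS2 and SOCS3 had clusters and no site. FLT3, the receptor kinase, had 10 sites, all in introns.

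Genes of the KMT2A-fusion programme had a 3' UTR site in 10 of 23 cases, and 6 passed over IgG. NSD2, a histone H3 lysine methyltransferase, led with 7.95 and 7.81 over input on an input of 1 read each, but had 3.38 and 2.55 over IgG. ZEB2, a transcription factor, had 5.39 and 6.04 over input, against 3.94 and 4.68 over IgG at the highest of its 3 sites, and DOT1L, the H3K79 methyltransferase, had 5.24 and 5.45 with 4.84 and 4.09 over IgG. BCL2 had 4.62 and 4.74 over input, against 4.12 and 4.12 over IgG. HOXA9 was near the threshold with 3.12 and 3.31, and MLLT3 had 3.38 and 3.48. MEIS1, MYB and KMT2A held sites only outside the 3' UTR.

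Myeloid transcription factors had a 3' UTR site in 8 of 24 cases. IRF5, an interferon regulatory factor, had 5.44 and 6.17 over input with 54 and 171 IP reads. CEBPD and IRF8, both regulators of monocytic and granulocytic genes, had 5.65 and 5.20 and 5.18 and 5.23 over input, and all 4 of their values over IgG lay between 4.67 and 5.02. IKZF1 had 4.27 and 4.22, IRF1 5.37 and 4.10, and CEBPB 3.43 and 3.44. SPI1 and CEBPA, the main lineage factors, had clusters but no site.

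Immediate early mRNAs are known to be short-lived, and 8 of the 16 AP-1 and immediate early genes with clusters had a 3' UTR site. FOS had 7.13 and 7.41 over input, against 5.14 and 5.47 over IgG. MAFK had 6.61 and 7.44, and FOSL2 4.85 and 7.14, a gap of over 2 units between the replicates. JUNB had 5.32 and 4.58 over input, against 3.96 and 3.23 over IgG. JUND had 4.45 over input in replicate 1, the lower of its values, and 5.16 and 5.96 over IgG. JUN, ATF3, FOSB and IER2 had clusters and no site.

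Of inflammatory mediators 9 of 15 had a 3' UTR site, and they split over IgG. VEGFA, the angiogenic factor, had 7.33 and 7.13 over input, against 4.53 and 4.77 over IgG, the urokinase receptor PLAUR 5.80 and 6.81 with 5.82 and 4.46, and the cytokine OSM 5.83 and 5.46 with 4.85 and 4.10. NFKBIA and TNFAIP3, inhibitors of NF-kB, had 5.36 and 5.41 and 4.27 and 4.37 over input, and 5.37 and 4.05 and 5.74 and 3.60 over IgG. CXCL8, CXCL2 and IL1B passed over input in both replicates (lowest value 4.11), yet their values over IgG were 0.91 and -0.29, 1.70 and 2.18, and 0.57 and 0.76. The 6 genes other than these 3 all passed over IgG in both replicates.

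Cell cycle genes had a 3' UTR site in 18 of 33 cases, of which 10 passed over IgG. They included the CDK inhibitors CDKN1A (5.69 and 5.50 over input), CDKN1B (5.28 and 5.08), CDKN2C and CDKN2D, as well as drivers such as CCND3 (5.26 and 4.93), CDC25A, CDK1, PLK1 and E2F1. PLK3 was the highest, with 6.18 and 7.88 over input, against 5.19 and 5.53 over IgG. E2F1 had 5.60 and 5.48 over input but 6.20 and 3.13 over IgG. Both brakes and drivers were on the list of targets, with a median lower fold of 3.83, close to that of all 3' UTR targets.

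Of apoptosis genes 6 of 19 had a 3' UTR site, and 2 passed over IgG. Their median lower fold was 3.38, against 3.41 for deadenylation and decay genes and 3.92 for all 3' UTR targets. The spread of the replicates was measured per site and not for such medians, so these gaps were not tested. PMAIP1 (NOXA) had 4.89 and 4.22 over input with 3.91 and 3.86 over IgG, BCL2L11 (BIM) 3.61 and 3.55 with 3.21 and 3.20, and BAX 3.92 and 3.47 with 2.55 and 2.06. MCL1 had 4.39 in replicate 1 and 3.01 in replicate 2.

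Genes of the decay machinery were also listed, with gene length not matched to the background. Deadenylation and decay genes had a site of any region in 21 of 33 cases (63.6%, against 37.9% of protein-coding genes). They had a 3' UTR site in 8 (24.2%, against 13.6%). AGO2, the slicing Argonaute, had 5 3' UTR sites, the highest with 4.41 and 4.92 over input, and CNOT6L, a catalytic deadenylase subunit, had 4.28 and 5.48 with 4.30 and 4.13 over IgG. The decapping enzyme DCP2 had 3.67 and 4.24 with 4.10 and 3.76. Of AU-rich element binders 17 of 22 (77.3%, against 37.9%) had a site of any region. A 3' UTR site was held by 4 (18.2%, near the background of 13.6%), namely ELAVL1 (4.99 and 6.13), RC3H2 (4.32 and 5.09), TIAL1 (3.36 and 3.73) and LARP4B (3.22 and 3.69). An intron site was held by 15 of the 22, where the share for protein-coding genes was 27.5%. Innate sensing genes had a 3' UTR site in 5 of 19 cases, led by STING1 and followed by CGAS, the DNA sensor upstream of STING1, with 5.84 and 5.57 over input, against 5.59 and 5.54 over IgG. MYD88 had 3.77 and 4.31 over input, against 1.79 and 1.37 over IgG on 17 and 47 IP reads.

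Abundant housekeeping mRNAs were rarely sites. Of the 77 ribosomal protein genes with clusters, 9 (11.7%) had a site and 3 (3.90%) a 3' UTR site, RPS27L, RPL14 and RPS16. The shares for protein-coding genes were 37.9% and 13.6%, with gene length not matched. Replication-dependent histone mRNAs, which lack a poly(A) tail, had a site in 6 of 48 cases (12.5%) and a 3' UTR site in 1, H3C6 with 3.49 and 4.08 over input, against 2.51 and 1.72 over IgG. Of the 8 monocytic and line markers with clusters, 0 had a 3' UTR site, a number too small to set apart from the background of 13.6%.

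**Figure D3:**
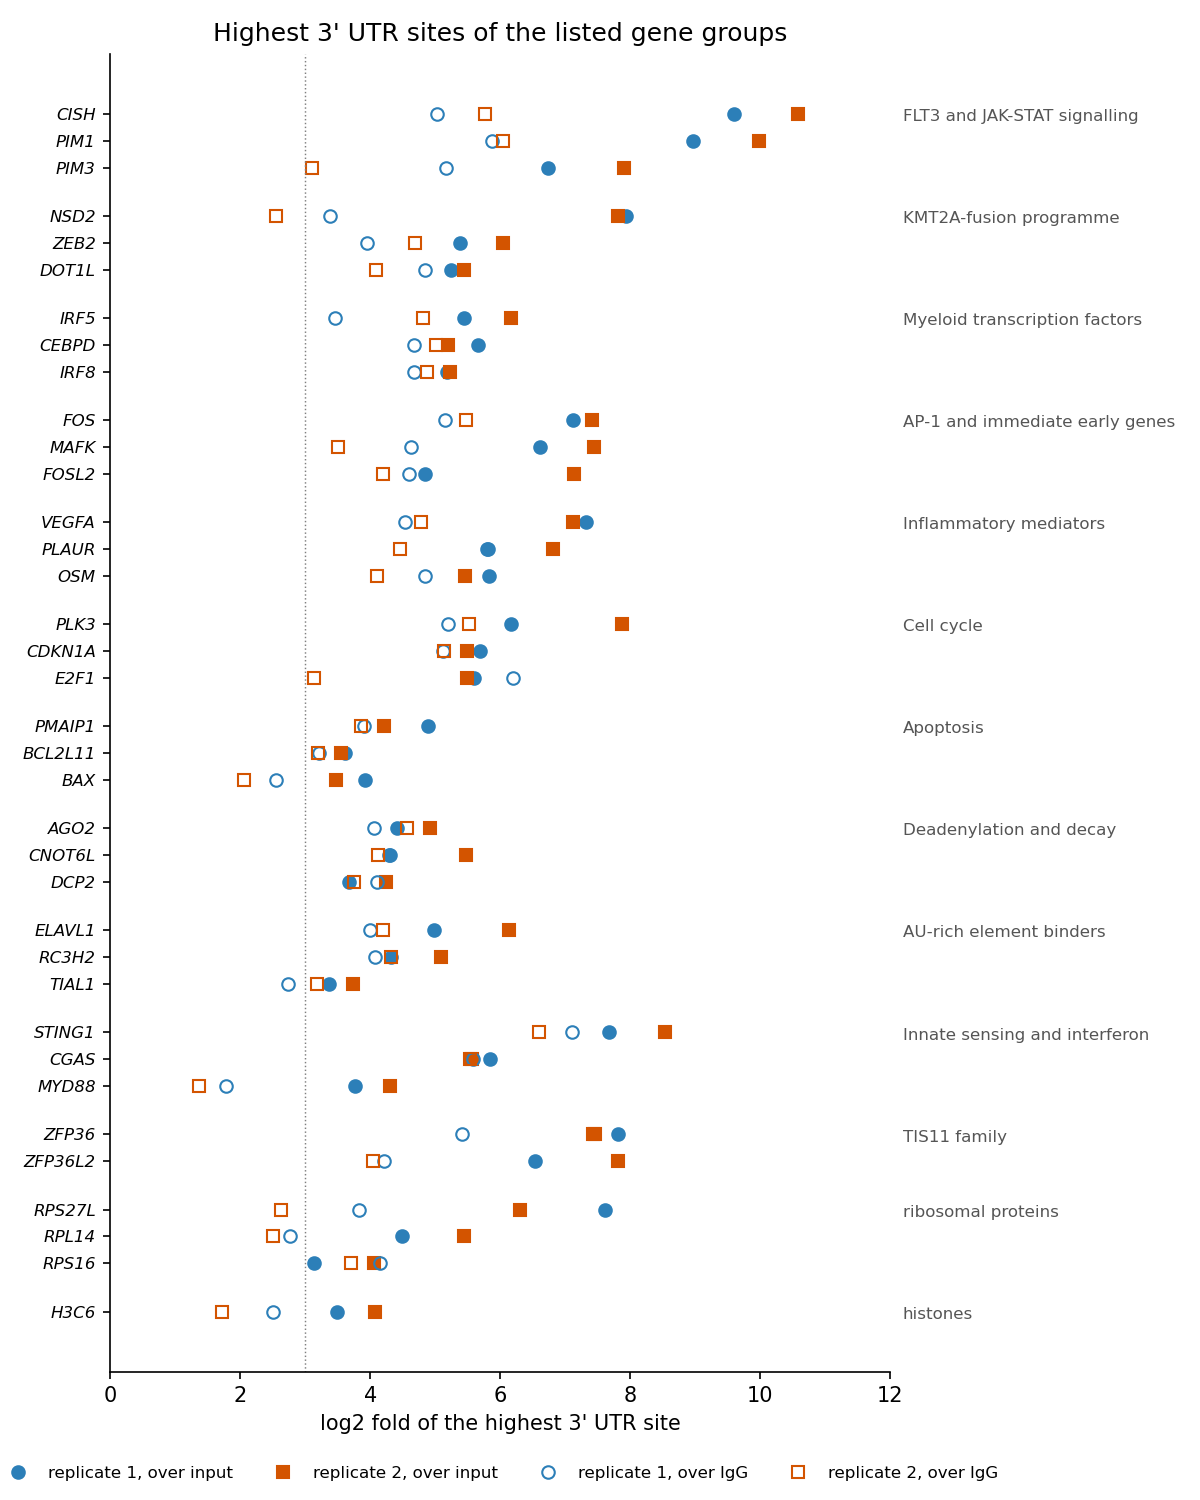
Log2 fold of the highest 3' UTR site for up to 3 genes of each gene list (names at the right), replicate 1 as circles and replicate 2 as squares, filled over input and open over IgG; the dotted line marks 3. CISH and PIM1 lie farthest right, and NSD2, BAX, TIAL1, MYD88, RPS27L, RPL14 and H3C6 have at least 1 open symbol left of 3.

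Many target genes held several sites, and no number to be expected from gene length or clusters was computed. Of the 4172 target genes 1835 (44.0%) had at least 2 sites, 331 had at least 5 and 36 at least 10, and the 331 genes held 26.7% of all sites. Longer genes with more clusters held more sites: among protein-coding genes, median length was 24670 bases with no site, 41303 with 1, 76624 with 2 to 4 and 151622 with 5 or more, and the median number of replicate 1 clusters rose from 5 to 10, 21 and 54. A 3' UTR site and an intron site occurred together in 515 genes, or 37.0% of the 3' UTR targets.

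In 3' UTRs, 200 of 1391 targets (14.4%) had several sites and 26 had at least 3. Of 242 neighbouring pairs of 3' UTR sites, 51.2% lay within 500 bases, with a median gap of 458.5 bases and 26.4% within 100. Of 3215 neighbouring pairs in introns, 22.2% lay within 500 bases, the median gap was 10542 bases and 50.9% were over 10000 bases apart. These scales also follow the lengths of 3' UTRs and introns, which were not available per transcript here. In genes with several 3' UTR sites the highest had a median lower fold of 4.54 and the next 3.46, against 3.82 for 3' UTR sites that were alone. The median distance from a 3' UTR site to the 3' end of its RefSeq gene was 1120 bases, and 64.9% lay within 2000.

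**Figure D4:**
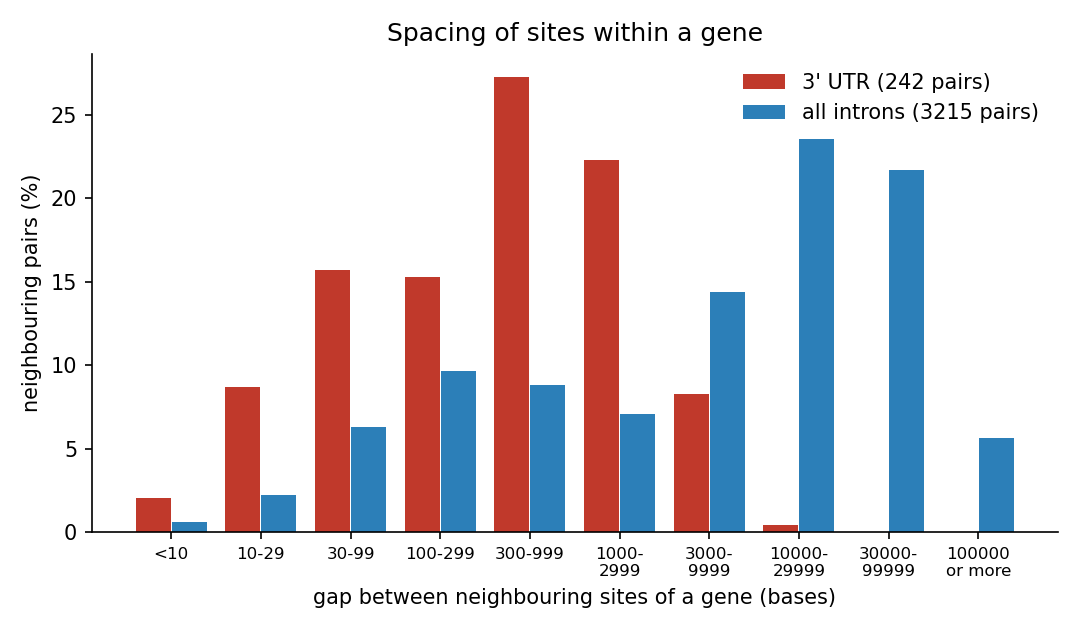
Percent of neighbouring pairs of sites of a gene by the gap between them in bases, in bins of increasing width, for 242 pairs in 3' UTRs and 3215 pairs in introns. Pairs in 3' UTRs are most frequent from 300 to under 1000 bases and those in introns from 10000 to under 30000.

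Of the genes with most 3' UTR sites, JAG1 and TRIM66 had 6 each. JAG1, a Notch ligand, carried them within 1390 bases (chr20:10638038-10639427, minus strand), 4 of the 5 gaps at most 500 bases. Its highest site had 7.94 and 7.67 over input, against 4.63 and 7.31 over IgG, and the site next to it, downstream, 5.28 and 5.89 over input. The outermost sites were weaker, with 3.38 and 4.70 on the 5' side and 3.21 and 3.93 on the 3' side. TRIM66, a chromatin reader, packed 6 sites into 1054 bases (chr11:8613629-8614682, minus strand) with all 5 gaps at most 92 bases. Its values over input reached 7.29 and 7.33, but just 1 of the 6 sites passed over IgG, against 4 of 6 in JAG1.

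The next genes differed in spacing. KMT2D, an H3K4 methyltransferase gene, had 5 sites in 2347 bases with a highest value of 5.99 and 5.95 over input, 1 of them over IgG in both replicates. AGO2 had 5 sites spread over 9080 bases, all with lower folds from 3.09 to 4.41. MTCL2 had a dominant site with 7.98 and 8.25 over input and 3 others with lower folds of 3.42 to 4.12. That site passed over IgG in replicate 1 (4.10) and missed it in replicate 2 (2.72), where 72 IgG reads were counted. POLR3K had 4 sites within 577 bases, MIDEAS 4 within 3556 bases, all 4 over IgG, and PRR12 4 within 494 bases.

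**Figure D5:**
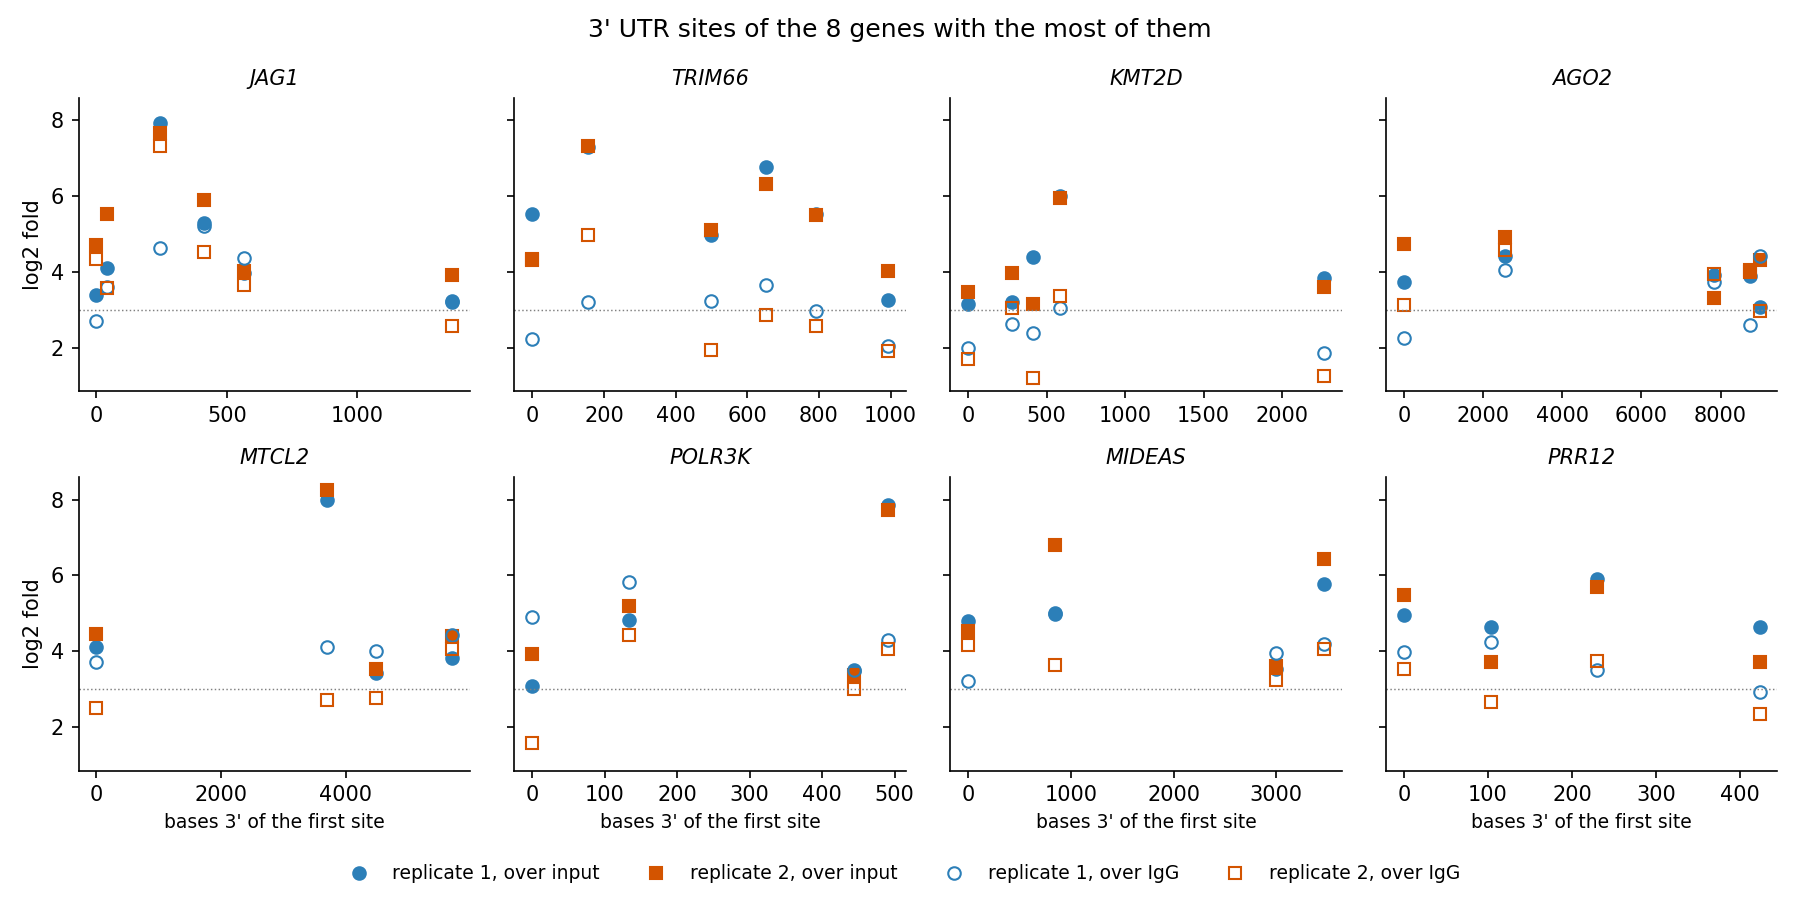
Log2 fold of each 3' UTR site of the 8 genes with the most of them, against the distance in bases from the gene's first (most 5') site, filled symbols over input and open ones over IgG, circles replicate 1 and squares replicate 2; the dotted line marks 3. JAG1, TRIM66, MTCL2 and POLR3K each have a single site above 7 over input in both replicates, and most values of TRIM66 over IgG are under 4.

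Introns held the longest arrays. CSNK1G2, a casein kinase 1 gene, had 24 intron sites on the plus strand of chromosome 19 (1943619 to 1974123), 20 of the 23 gaps at most 500 bases and a median gap of 139. Their lower folds over input ran from 3.01 to 7.28. None of the 24 passed over IgG in both replicates (medians 2.58 and 2.02), and THP1 had enriched peaks in both replicates at 2 of the 24, though it had IP clusters there at 15. PVT1, a long noncoding RNA gene beside MYC, had 23 intron sites with a highest lower fold of 8.96, 8 over IgG, and 19 shared with THP1.

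Other arrays were spread wider. WWOX, which spans a common fragile site, had 20 intron sites over 822691 bases with a median gap of 29370, and 8 passed over IgG. ADK, adenosine kinase, had 15 with a median gap of 4278 and 5 over IgG. FANCA, of the Fanconi anaemia core complex, and KDM2A, a histone demethylase, had 14 each, and VAV1, a guanine nucleotide exchange factor of blood cells, and SGK3, a kinase, 13 each. A further gene, on chromosome Y, is not described. KDM2A had all 14 sites shared with THP1 but 1 over IgG. The share of sites over IgG thus ran from 0 of 24 in CSNK1G2 to 8 of 20 in WWOX.

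Along protein-coding genes over 10000 bases, intron sites became fewer toward the 3' end: of 5715 sites 5 equal parts of the gene, from 5' to 3', held 25.7%, 24.1%, 20.4%, 18.1% and 11.7%. All IP clusters of the same 2721 genes, which also include exonic ones, ran 22.9%, 20.1%, 17.6%, 16.1% and 23.3% in replicate 1. The intron sites over IgG ran 23.9%, 24.1%, 20.1%, 19.6% and 12.3%.

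The highest intron folds exceeded most 3' UTR ones over input and less so over IgG. MTHFD1L, a mitochondrial folate enzyme, had 9.67 and 9.34 over input at chr6:150923555-150923626, with 1011 and 1533 IP reads over 1 input read, and 4.43 and 3.66 over IgG. COPA, a coatomer subunit, had 9.60 and 9.20 over input, against 4.00 and 2.69 over IgG, and CSTF3, a cleavage stimulation factor subunit, 9.34 and 9.01 with 4.94 and 3.88. In proximal introns GIT2 had 9.14 and 8.97, RBL1 9.07 and 8.52 and RNF130 8.36 and 8.90. COPA and RBL1 missed the IgG threshold in replicate 2.

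Outside introns and 3' UTRs the leading sites differed over IgG, with values over IgG given here for coding and 5' UTR sites only. Of all coding sites 42.1% passed over IgG in both replicates, and of 5' UTR sites 29.2%. The shares were 31.0% for noncoding exons, 19.8% for 5' splice sites and 31.7% for 3' splice sites. NNT, a mitochondrial transhydrogenase, had a coding site at chr5:43700124-43700204 with 8.06 and 8.97 over input, against 8.07 and 7.62 over IgG, from 1990 and 1191 IP reads against 3 and 1 IgG reads. KLC2, a kinesin light chain, had 7.76 and 7.44 over input, against 4.78 and 4.50 over IgG in coding sequence. EFNA5, an ephrin, had a 5' UTR site of 14 peaks with 8.49 and 8.74 over input, against 4.38 and 4.58 over IgG, which THP1 did not share. SLC25A29, a mitochondrial carrier, followed with 7.70 and 7.42 over input, against 3.26 and 2.37 over IgG. Among genes named in RefSeq the highest noncoding exon sites were those of TPTEP2-CSNK1E (7.94 and 6.83), PRC1 and RAB4B (6.12 and 5.79). Of names not matched there, AC025171.1 was above these 3 in both replicates (8.88 in replicate 2), and HELLPAR had 6.80 and 6.18. At splice sites SMS, spermine synthase, had 8.23 and 7.71, SBF2 7.85 and 6.83, ATG13 7.55 and 7.16, PHF12 7.35 and 6.67, AEBP2 7.03 and 6.68 and NCBP1 6.77 and 6.89 over input.

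Most of the sites had a counterpart in THP1. Enriched peaks of both THP1 replicates overlapped 6772 MOLM13 sites (80.1%), and 6788 of 11322 THP1 sites built the same way (60.0%) were overlapped by both MOLM13 replicates. Both THP1 folds may rest on the same single input. By region the share of MOLM13 sites was 68.7% in 3' UTRs, 84.1% in introns and 68.2% in coding sequence. It rose with the fold, for 3' UTR sites from 55.4% at lower folds of 3 to 4 to 94.4% at 5 to 6, and for intron sites from 71.1% to 96.0%. Of the 1681 MOLM13 sites without a counterpart, 83.8% still overlapped an IP cluster of both THP1 replicates. The difference between regions was not tested.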

How the data were processed

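Per the labels' protocols, crosslinked MOLM13 lysates were treated with RNase I, precipitated and made into single-end eCLIP libraries. Listed without roles in the submitters' processing notes are Picard 2.6.0, STAR 2.5.0c and cutadapt 1.14. Those notes also list edgeR, not used for any value here. They list hg38 beside hg19 and GRCh37; 98.4% of 8224 named sites lay within the RefSeq gene of that name on GRCh38, so coordinates are taken as hg38. The sources used here do not give the caller, the test or the read totals. In the deposited tables the authors give a log2 fold of IP over input or over IgG per cluster, called per IP. The authors' −log10 p is capped at 400. The tables over input also give gene and region, and those over IgG were joined by identical coordinates (29 peaks in each replicate had no IgG value). File coordinates are 0-based and were turned to 1-based.

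Same-strand peaks that overlapped or touched were merged. A merged stretch was a site if peaks of different replicates shared at least 1 base in it. Region and gene are those of the highest replicate 1 peak. With 2 libraries a group, no test was run across libraries, since an exact test of 2 against 2 cannot go below p = 0.333. Intervals are 95% Wilson intervals and cover counting error only.

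IP and control reads per peak are the smallest whole numbers that give both deposited folds within 1e-06 of a whole number, which all 14432 and 14425 peaks had. They are derived from the folds, and true reads may be a multiple of them. Overlap, merging, gaps and read steps were tested on simulated data. Of 5470 gene names, 5203 matched RefSeq (GRCh38.p14), and current symbols are printed. Named genes were the TIS11 genes, the 12 highest 3' UTR targets over IgG, the 8 genes with most 3' UTR and most intron sites, the 3 highest of each other region, and up to 3 per list with a 3' UTR site. One gene chosen by this rule is not reported here. Genes named beyond these were chosen after their values were seen. Y-linked genes were left out. Members and lists were chosen with earlier results of these data known. Promoter windows are from RefSeq. No genome was used, so 3' UTR sequence was not searched. Python 3.11.15, pandas 2.3.3, NumPy 2.4.6 and SciPy 1.17.1 were used.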

Additional observations from a re-analysis of the deposited data

How the results depend on the processing

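Of 57 alternatives, 25 stayed within 1 SD of the replicates or, for counts, within 1.5 times. No paired analysis was possible because the deposited values are comparisons already made within each replicate and no test was run across libraries. Motifs in 3' UTR sites were not run, since no genome was used.

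A log2 fold of at least 4 in both replicates left 4889 sites, 644 3' UTR targets (660 with no overlap asked), 73.0% of replicate 1 peaks paired, a 3' UTR share of 14.3%, 34.7% of genes with several sites, and 55.6% of 3' UTR and 17.1% of intron pairs within 500 bases. A −log10 p of at least 5 gave 83.3% paired, a 3' UTR share of 21.1% and 40.1% of genes with several sites. Pairing of replicate 2 peaks was 83.9%. Sites also enriched over IgG gave 1608 target genes, 707 3' UTR targets, a 3' UTR share of 37.3%, 20.1% of genes with several sites and 10.3% of intron pairs within 500 bases. Merging within 50 bases gave 41.6% of 3' UTR and 18.1% of intron pairs within 500 bases, and merging within 200 bases 41.5% of genes with several sites. The share over IgG was 44.4% at a log2 fold of 2, 6.03% at 4 and 52.2% in replicate 1 alone. Of sites with at least 2 input reads, added after seeing the data, 42.5% lay in 3' UTRs and 44.1% passed over IgG. Among the 6153 sites with enough IP reads to pass over 1 IgG read, also added later, 33.8% passed, 57.8% in 3' UTRs and 25.4% in introns.

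With each replicate alone, the 3' UTR share was 20.5% to 22.1%, target genes numbered 4717 to 4944 and 3' UTR targets 1824 to 1888, several sites were held by 47.3% to 48.9% of genes, and 53.3% to 54.3% of 3' UTR and 25.7% to 27.6% of intron pairs lay within 500 bases. The cause of these shifts was not tested beyond what each limit removes.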
